A study of Mus musculus with 8 samples.

Results

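The genes described here are those whose symbol begins with Psma to Psmg followed by a number, the naming scheme of proteasome subunits, their regulators and their assembly chaperones. This rule on names found 50 of the 22065 named genes in the count table, and used no measured value. They were 8 genes of the 20S alpha ring, 7 constitutive genes of the 20S beta ring, 3 immunoproteasome genes, 6 ATPases and 3 other subunits of the 19S base, 8 subunits of the 19S lid, 4 chaperones of core assembly, 3 chaperones of base assembly, and 6 genes of alternative activators and the inhibitor PI31. Psmc3ip, a meiotic recombination factor, and Psme3ip1, which encodes a binding partner of PA28 gamma, matched by name alone. They were kept as a group of their own and are included in counts over all 50.

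The study asked how loss of MITOL, an E3 ubiquitin ligase of the outer mitochondrial membrane encoded by Marchf5, alters hematopoietic stem cells (HSCs). RNA-seq was carried out on 4 libraries from MitolΔ/Δ mice, labelled Mitol KO, and 4 from control mice, with 100 sorted bone marrow cells in each. The cells were gated as Lineage-, CD48-, CD150+ and EPCR+ in the labels, the study's methods also give c-Kit+ for HSCs, and the mice were C57BL/6 and 8 to 10 weeks old. MitolΔ/Δ mice carried Mitol Flox/Flox and MX1-cre, an interferon-inducible Cre that also acts in blood cells other than HSCs, while control mice carried Mitol Flox/Flox without the Cre. Both groups received Poly:IC, an inducer of interferon, and cells were taken 1 week later. The sources used here do not say whether each library came from a separate mouse, so p-values measure the spread between these libraries.

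Counts on named genes ran from 7214935 to 12398138 per library. Marchf5 itself had 24.3 to 32.9 CPM, counts scaled to a common library size, in MitolΔ/Δ libraries and 28.2 to 35.6 in control libraries, and an adjusted p of 0.498 by edgeR, and counts per gene do not separate the deleted exons. Of 8 HSC markers, 3 passed as lower in MitolΔ/Δ HSCs by edgeR, Kit and Hlf among them, where 3.75% of all tested genes did. None passed as higher. At an unadjusted p under 0.05 by edgeR, 5 were lower and 1 was higher, against 12.8% and 13.6% of all tested genes. Kit, the mRNA of the c-Kit sort marker, was at 640.9 to 879.5 CPM in MitolΔ/Δ and at 1092 to 1444 CPM in control HSCs. Cd48, which the gate excludes as a surface protein, was higher, at 2.35 to 6.65 CPM against 0.483 to 2.31 CPM. MitolΔ/Δ replicate 3 stood apart in Hbb-bs, 1 of several hemoglobin mRNAs, with 111.8 CPM where the other libraries had at most 2.07 CPM. The summed level of 7 erythroid genes ran from 96.3 to 363.1 CPM in MitolΔ/Δ and from 27.1 to 78.6 CPM in control libraries. Of the 4 of them that were tested, 1 passed as higher by edgeR, and it was not Hbb-bs. Few markers of other lineages had enough counts to be tested. They were 2 of 9 neutrophil, 1 of 6 B-lineage, 1 of 5 T-lineage, 1 of 5 mast-cell and basophil, and 4 of 6 macrophage and dendritic markers. None of these passed the threshold by edgeR, while DESeq2 called 1 neutrophil marker. The part of these differences in the results below was not tested.

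The proteasome degrades proteins that carry ubiquitin chains. Its 20S core is a barrel of alpha and beta rings, in which Psmb6, Psmb7 and Psmb5 encode the active-site subunits with caspase-like, trypsin-like and chymotrypsin-like activity. The 19S particle binds ubiquitinated substrates, removes the ubiquitin and feeds the unfolded chain into the core, and the 26S proteasome is the core with the 19S particle attached. Interferon induces Psmb9, Psmb10 and Psmb8, which replace the constitutive active-site subunits in new immunoproteasomes and favour peptides for MHC class I. When proteasome capacity falls, the transcription factor NRF1, encoded by Nfe2l1, raises constitutive subunit genes together through antioxidant response elements in their promoters. Low protein synthesis and tight control of protein quality are known features of HSCs.

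Promoter windows of RefSeq, on build GRCm38.p6, were at hand for 42 of the 50 genes. The 8 others were Psma8, Psmb1, Psmb2, Psmb7, Psmc3, Psmd3, Psmd7 and Psmg2. The 150 bases before the transcription start are printed 5′ to 3′ on the gene's strand for 3 genes that rose, Psmd8, Psmd13 and Psmb5, and for the 3 immunoproteasome genes, which set the comparison of the constitutive with the inducible particle. Capitals mark ACTTCCG on either strand, the core of many ETS-factor sites, or TGACNNNGC on either strand, the core of the antioxidant response element. Psmd8 lies at chr7:29180674-29180823 on the minus strand, Psmd13 at chr7:140882244-140882393 on the plus strand, and Psmb5 at chr14:54617996-54618145 on the minus strand. Psmb8 lies at chr17:34198045-34198194 on the plus strand, Psmb9 at chr17:34187331-34187480 on the minus strand, and Psmb10 at chr8:105938393-105938542 on the minus strand.
Psmd8: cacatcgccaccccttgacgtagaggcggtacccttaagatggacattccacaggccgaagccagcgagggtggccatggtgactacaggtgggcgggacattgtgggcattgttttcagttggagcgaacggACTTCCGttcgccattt
Psmd13: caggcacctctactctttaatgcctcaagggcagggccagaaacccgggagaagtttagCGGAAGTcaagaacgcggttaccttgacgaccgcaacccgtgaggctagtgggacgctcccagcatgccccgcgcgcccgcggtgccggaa
Psmb5: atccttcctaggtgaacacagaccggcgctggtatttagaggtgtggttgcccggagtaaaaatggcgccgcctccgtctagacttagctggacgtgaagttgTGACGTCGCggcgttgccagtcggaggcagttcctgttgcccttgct
Psmb8: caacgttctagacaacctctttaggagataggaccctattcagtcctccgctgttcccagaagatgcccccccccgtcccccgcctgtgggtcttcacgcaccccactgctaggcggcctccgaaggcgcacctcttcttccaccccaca
Psmb9: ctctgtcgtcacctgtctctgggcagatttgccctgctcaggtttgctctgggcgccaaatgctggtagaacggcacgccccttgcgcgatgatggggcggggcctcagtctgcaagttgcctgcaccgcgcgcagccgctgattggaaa
Psmb10: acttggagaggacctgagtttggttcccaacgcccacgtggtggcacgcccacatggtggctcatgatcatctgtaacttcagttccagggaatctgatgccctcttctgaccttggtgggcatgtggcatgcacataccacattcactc
Psmd8 and Psmd13 each hold one ACTTCCG in these bases, Psmb5 holds one TGACNNNGC, and the immunoproteasome genes hold neither. Among the other genes that rose, Psmb4 has ACTTCCG only across the start and Psmc4 only after it. Psma1, Psma5, Psmb3 and Psmd2 hold neither motif in their whole windows, and Psmb2 has no window. The 3 printed genes that rose thus do not stand for all that did. A match is a description of letters and was not tested for binding.

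Over whole windows, from 250 bases before to 50 after a start, ACTTCCG lay in 14 of the 42 proteasome genes, or 33.3%, against 14.4% of 10777 tested genes with a window and 7.2% of all 27025 genes with one. It was present in 11 of 25 constitutive 26S subunits, 0 of 3 immunoproteasome genes and 3 of all 17 genes outside the 26S subunits. Among the genes that rose it lay in 4 of 9, and among the rest in 10 of 33. This motif was chosen after the sequences had been read. TGACNNNGC lay in 6 of the 42 genes, or 14.3%, namely Psmb5, Psmb6, Psmc6, Psmd12, Psmd9 and Psme4, against 17.1% of tested genes. A GAAA followed after any 2 bases by a further GAAA, a core of interferon-response elements, lay in 5 of the 42, or 11.9%, against 3.67% of tested genes, and in none of the 3 immunoproteasome windows. CCAAT and CACGTG lay in 35.7% and 11.9% of the 42, against 42.6% and 11.6% of tested genes. All motifs were searched on both strands, no shared letters were removed, and a gene with several starts counted once.

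Of 32 subunits of the core and of the 19S particle outside the immunoproteasome, 10 were higher in MitolΔ/Δ HSCs. None of the 3 immunoproteasome genes passed the threshold. In the quasi-likelihood fit of edgeR, with p-values adjusted after Benjamini and Hochberg over all 16444 tested genes, 10 of the 50 proteasome genes rose at an adjusted p under 0.05, where 4.68% of all tested genes did and 8.43% passed in either direction. None fell, where 3.75% of all tested genes did, and none was lower at an unadjusted p under 0.05 by edgeR or at an adjusted p under 0.05 by DESeq2. All 50 passed the filter on low counts, with 13 to 3845 counts per gene and library. The genes that rose were Psma1, Psma5, Psmb2, Psmb3, Psmb4, Psmb5, Psmc4, Psmd2, Psmd8 and Psmd13, all of them 26S subunits. In fold change they ran from 1.31 for Psmb4 to 1.90 for Psmb5.

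The direction was shared more widely than the calls. The log2 fold change was positive in 47 of 50 genes, where 47.7% of all tested genes had a positive value, and its median was 0.35 against -0.02 over all tested genes. At an unadjusted p under 0.05, 28 of the 50 were higher, against 13.6% of tested genes. All 4 MitolΔ/Δ libraries lay above all 4 control libraries in 16 of the 50, against 7.28% of tested genes, and no proteasome gene showed the opposite order, against 7.87%. Proteasome genes are known to be expressed together, so they do not count as independent observations. The summed level of the 50 was 3205, 3285, 2957 and 2635 CPM in MitolΔ/Δ replicates 1 to 4 and 2665, 2250, 2497 and 2260 CPM in control replicates 1 to 4. MitolΔ/Δ replicate 4 thus lay just under the highest control library, replicate 1, and the groups overlapped in this sum.

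**Figure D1:**
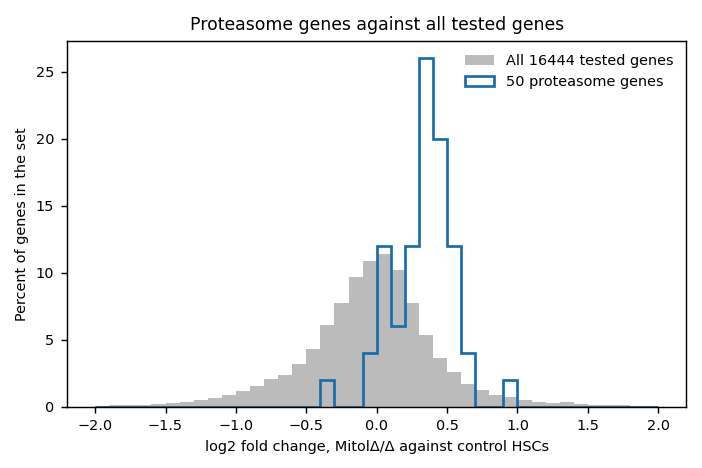
Distribution of log2 fold changes (x axis, MitolΔ/Δ against control HSCs) for all 16444 tested genes (grey) and the 50 proteasome genes (blue outline), as percent of the genes in each set (y axis). The proteasome genes centre on 0.35 and all tested genes on -0.02, and 99.4% of tested genes lie within the axis.

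How many proteasome genes were called moved with single libraries, and so did the share of all tested genes called higher. Without MitolΔ/Δ replicate 4 the number was 28, where 8.77% of all tested genes were called higher. Without MitolΔ/Δ replicates 1, 2 or 3 it was 2, 2 and 3, where 1.84%, 1.43% and 1.85% of all tested genes were. Of these, replicate 3 was the library with high Hbb-bs mRNA. Without control replicates 2, 3 or 4 it was 2, 4 and 3, where the shares were 0.995%, 2.48% and 1.60%. Without control replicate 1 it was 15, where the share was 4.64%. Psmb5 and Psmd8 passed in all 8 of these fits, Psmb2 in 5, and the other 7 genes in 1 or 2 of them. DESeq2 called 22 of the 50 higher, the 10 of edgeR included, where it called 8.19% of all genes higher.

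Grouped by role, all 10 calls lay in the 26S subunits. Of 31 constitutive 26S subunits other than Psma8, all had a positive log2 fold change, 10 rose, and the median was 0.39. The 18 remaining proteasome genes had a median of 0.20, with 16 positive values and none past the threshold. Without those matched by name alone, 14 of 16 were positive, and the median was again 0.20. Where 4.68% of all tested genes were called higher, no call among 18 or fewer genes says little, here and in the lists below. Psma8, a testis-specific variant of the alpha ring, was at 3.42 to 6.90 CPM in MitolΔ/Δ and 4.78 to 8.01 CPM in control libraries, with a log2 fold change of -0.34. The difference between these groups of genes was not tested.

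**Figure D2:**
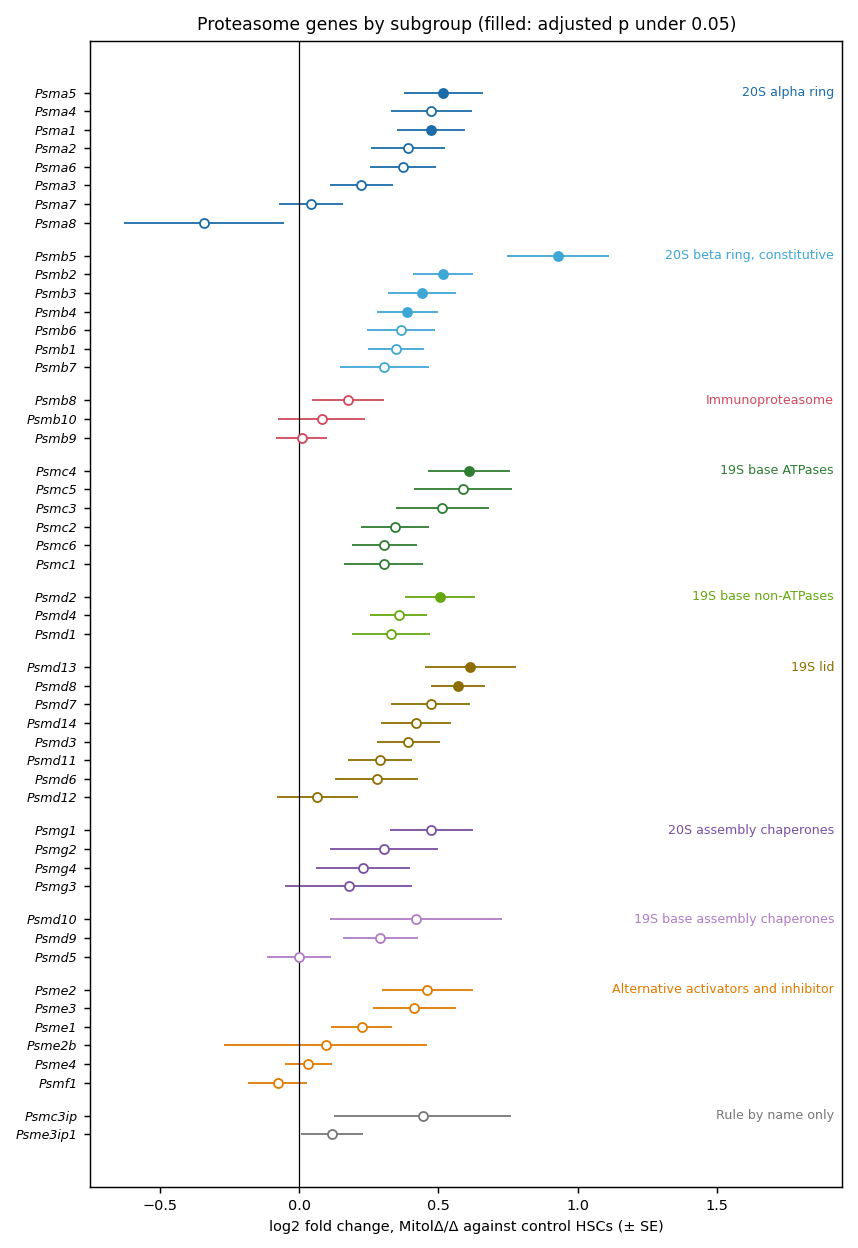
Log2 fold change of each of the 50 proteasome genes (x axis, MitolΔ/Δ against control HSCs), grouped by role, with bars for the standard error and filled points for an adjusted p under 0.05 by edgeR. Filled points occur among alpha, beta, base and lid subunits, Psmb5 lies farthest right at 0.93, and the 3 immunoproteasome genes lie between 0.01 and 0.18.

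In the alpha ring, which gates entry to the core, 2 of 8 genes rose, where 4.68% of all tested genes did. At an unadjusted p under 0.05 by edgeR, 5 were higher, against 13.6% of all tested genes. Psma1, the alpha 6 subunit, was at 39.9, 48.5, 38.1 and 36.8 CPM in MitolΔ/Δ replicates 1 to 4 and at 31.5, 30.2, 27.8 and 28.3 CPM in control replicates 1 to 4. The groups did not overlap, and the log2 fold change was 0.47 (SE 0.12, adjusted p = 0.0362, edgeR). Psma5, the alpha 5 subunit, was at 38.2, 41.0, 30.4 and 28.1 CPM against 23.2, 24.8, 24.4 and 23.8 CPM. Here too every MitolΔ/Δ library was above every control library, with a log2 fold change of 0.52 (SE 0.14, adjusted p = 0.0446, edgeR). Psma5 did not pass with library totals alone (adjusted p = 0.0677, edgeR), with limma-voom (0.0555) or with the replicate number as a block (0.0546, edgeR). Among the 6 other alpha genes, Psma7, the alpha 4 subunit that Psma8 replaces in testis, had a log2 fold change of 0.04 (edgeR's adjusted p was 0.846) and Psma4 one of 0.47 (adjusted p = 0.0636, edgeR).

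In the beta ring 4 of 7 constitutive genes rose, the highest share of any role in this fit, where 4.68% of all tested genes did. With library totals alone, Psmb3 and Psmb4 did not pass. All 7 genes had a positive log2 fold change. Psmb5, the chymotrypsin-like subunit and the main target of proteasome inhibitors, was at 16.7, 18.5, 17.3 and 14.8 CPM in MitolΔ/Δ libraries and at 8.58, 9.41, 10.6 and 6.76 CPM in control libraries. These were means of 16.8 ± 1.56 and 8.83 ± 1.602 CPM (SD, n = 4), with no overlap, and this was the largest fold change of the 50 genes (log2 fold change 0.93, SE 0.18, adjusted p = 0.0157, edgeR). Psmb2, a structural subunit, was at 82.0, 77.8, 67.1 and 68.6 CPM against 57.4, 52.2, 50.2 and 47.1 CPM. The Psmb5 gene spans 54850776 to 54855481 on chromosome 14 of GRCm39, on the minus strand. The groups were also separate for Psmb2 (log2 fold change 0.52, SE 0.11, adjusted p = 0.0177, edgeR).

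Psmb3 and Psmb4, structural subunits without an active site, rose by less. Psmb3 was at 47.1, 48.4, 51.7 and 43.6 CPM in MitolΔ/Δ libraries and at 41.6, 31.8, 36.0 and 31.3 CPM in control libraries (log2 fold change 0.44, SE 0.12, adjusted p = 0.0451, edgeR). Psmb4 was at 88.9, 86.6, 73.0 and 72.9 CPM against 68.8, 61.2, 61.3 and 54.6 CPM (log2 fold change 0.39, SE 0.11, adjusted p = 0.0481, edgeR). In both, no libraries of the groups overlapped. Psmb1, the remaining structural subunit, lay just outside the threshold (log2 fold change 0.35, adjusted p = 0.0527, edgeR).

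The other constitutive active-site genes did not pass. Psmb6, the caspase-like subunit, was at 74.1, 80.8, 66.2 and 59.6 CPM in MitolΔ/Δ libraries and at 57.9, 48.2, 61.1 and 50.9 CPM in control libraries. MitolΔ/Δ replicate 4 lay under control replicate 3 (log2 fold change 0.37, SE 0.12, adjusted p = 0.0815, edgeR), and DESeq2 gave an adjusted p of 0.0408. Psmb7, the trypsin-like subunit, was at 34.0, 27.4, 26.7 and 22.6 CPM against 22.4, 18.6, 22.2 and 26.4 CPM, with overlapping groups (log2 fold change 0.30, SE 0.16, adjusted p = 0.248, edgeR).

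The immunoproteasome genes gave low fold changes. Psmb8 was at 69.3, 74.7, 60.8 and 53.0 CPM in MitolΔ/Δ libraries and at 66.9, 51.8, 56.2 and 53.6 CPM in control libraries (log2 fold change 0.18, SE 0.13, adjusted p = 0.416, edgeR). Psmb9 was at 97.6, 96.5, 89.6 and 97.4 CPM against 99.8, 82.7, 100.0 and 96.0 CPM (log2 fold change 0.01, SE 0.09, adjusted p = 0.961, edgeR). Psmb10 was at 36.0, 41.3, 42.3 and 44.5 CPM against 50.6, 33.2, 40.7 and 30.9 CPM (log2 fold change 0.08, SE 0.16, adjusted p = 0.785, edgeR). The groups overlapped in all 3. For Psmb9, the interval of 2 standard errors around the log2 fold change ran from -0.17 to 0.19. It ran from -0.08 to 0.43 for Psmb8 and from -0.23 to 0.39 for Psmb10. These 2 wider intervals reach the median of 0.39 of the constitutive 26S subunits. Psmb9 overlaps Tap1 on the opposite strand, and the strand setting of the counting is not given in the sources used here, so reads of the pair may not be fully apart.

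**Figure D3:**
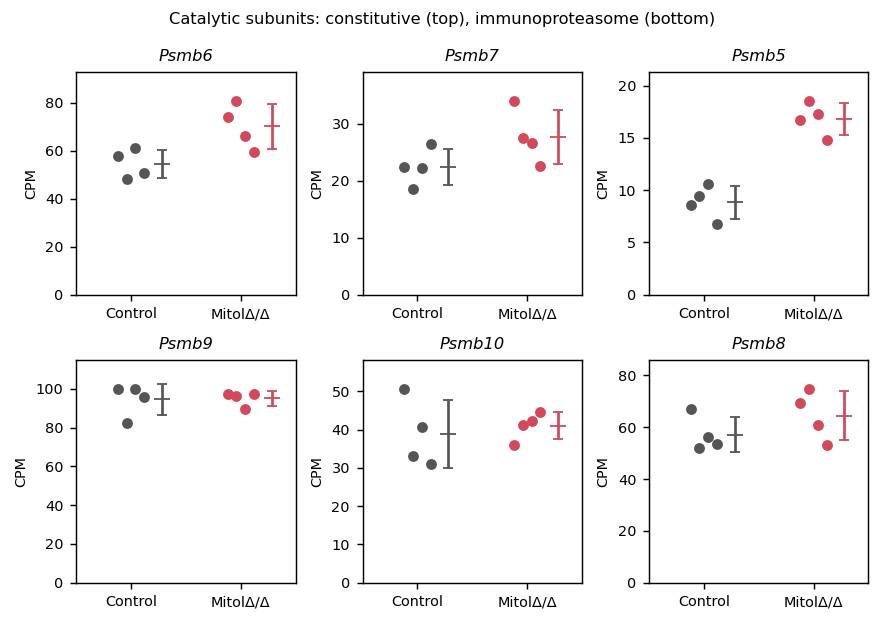
Level in CPM (y axis, from 0) of the 3 constitutive active-site genes (top) and their immunoproteasome counterparts (bottom) in the 4 control and 4 MitolΔ/Δ libraries, with the mean and SD beside the points. The groups are apart for Psmb5, with 14.8 to 18.5 CPM against 6.76 to 10.6 CPM, and overlap for the other 5 genes.

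Each immunoproteasome subunit takes the place of one constitutive subunit, and the log2 ratio of their counts within a library does not depend on library scaling. This log2 ratio of Psmb8 to Psmb5 was 2.06, 2.01, 1.82 and 1.84 in MitolΔ/Δ libraries and 2.96, 2.46, 2.41 and 2.99 in control libraries. The groups were apart, with means of 1.93 ± 0.12 and 2.71 ± 0.31 (SD, n = 4), a difference of -0.77. The ratio of Psmb9 to Psmb6 was 0.397, 0.256, 0.436 and 0.709 against 0.785, 0.778, 0.712 and 0.915, also with no overlap, though the closest libraries differed by little. The ratio of Psmb10 to Psmb7 was 0.0846, 0.589, 0.665 and 0.978 against 1.18, 0.837, 0.874 and 0.224, and the groups overlapped. No test was made of these ratios, whose numerators and denominators are also reported singly. They compare mRNA counts and say nothing of the assembled particles.

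**Figure D4:**
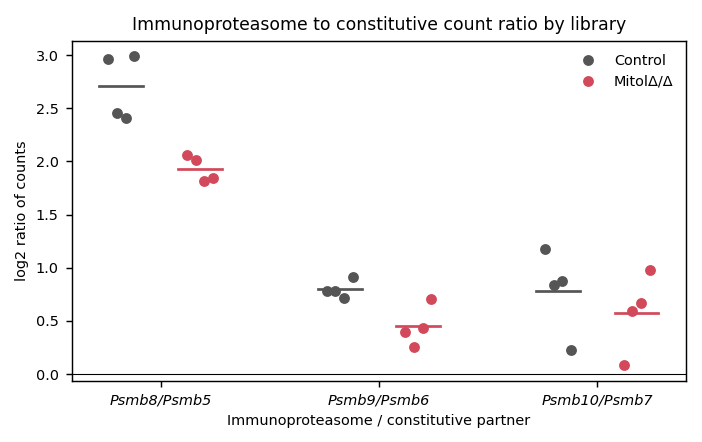
Log2 ratio of counts (y axis) of each immunoproteasome gene to its constitutive partner (x axis) by library, with lines at the group means. Control and MitolΔ/Δ libraries are apart for Psmb8/Psmb5 and Psmb9/Psmb6 and overlap for Psmb10/Psmb7.

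Levels of different genes were compared per kilobase. With lengths of the Ensembl canonical transcript, control HSCs held 69.9 CPM per kb of Psmb9, 52.6 of Psmb6, 33.6 of Psmb8, 29.6 of Psmb10, 19.3 of Psmb7 and 5.19 of Psmb5. With the union of all annotated exons the values were 24.9, 24.9, 16.7, 22.4, 3.72 and 4.92 in the same order of genes. Psmb5 and Psmb7 were the lowest on both scales, while the order of Psmb8 and Psmb10 and of Psmb5 and Psmb7 changed with the length used.

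The 19S base holds the ring of ATPases that unfolds substrates. In it 1 of 6 ATPases and 1 of 3 other subunits rose, where 4.68% of all tested genes did. Psmc4, an ATPase, was at 81.5, 97.6, 75.9 and 61.6 CPM in MitolΔ/Δ libraries and at 57.7, 55.1, 53.2 and 41.8 CPM in control libraries (log2 fold change 0.61, SE 0.15, adjusted p = 0.0285, edgeR). Psmd2, the scaffold subunit that binds ubiquitin-like domains of shuttle factors, was at 193.7, 193.8, 154.6 and 132.2 CPM against 129.8, 109.5, 122.7 and 113.3 CPM (log2 fold change 0.51, SE 0.12, adjusted p = 0.0308, edgeR). Both were separate between the groups. The 6 ATPases had log2 fold changes from 0.30 to 0.61. Psmd4, a ubiquitin receptor, lay just outside the threshold, at 53.2, 55.7, 53.1 and 54.9 CPM against 46.3, 42.9, 37.6 and 42.7 CPM (log2 fold change 0.36, adjusted p = 0.0502, edgeR).

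In the 19S lid, which holds the deubiquitinase Psmd14, 2 of 8 subunits rose, where 4.68% of all tested genes did. All 8 had a positive log2 fold change. Psmd8, on the minus strand of chromosome 7 of GRCm39 from 28873612 to 28880135, had the lowest p-value of the 50 genes, with 107.0, 105.0, 100.9 and 103.5 CPM in MitolΔ/Δ libraries and 78.6, 68.4, 72.5 and 60.9 CPM in control libraries. Its means were 104.1 ± 2.56 and 70.1 ± 7.43 CPM (SD, n = 4), and the groups did not overlap (log2 fold change 0.57, SE 0.10, adjusted p = 0.00844, edgeR). Psmd13 was at 71.8, 71.7, 68.8 and 47.9 CPM against 50.9, 32.6, 47.0 and 39.8 CPM. It was the sole gene past the threshold whose groups overlapped, as MitolΔ/Δ replicate 4 lay under control replicate 1 (log2 fold change 0.61, SE 0.16, adjusted p = 0.0396, edgeR). Psmd13 overlaps Sirt3 and Cox8b on the opposite strand, as Psmb4 does Pogz, and their reads may not be fully apart. Psmd3 was just outside the threshold (log2 fold change 0.39, adjusted p = 0.0528, edgeR), Psmd14 had a log2 fold change of 0.42 (edgeR's adjusted p was 0.0565), and Psmd12 had the lowest of the lid at 0.07 (adjusted p = 0.814, edgeR).

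None of the 7 assembly chaperone genes passed the threshold. Psmg1, which pairs with Psmg2 to build the alpha ring, came nearest, at 23.0, 23.0, 22.6 and 20.03 CPM in MitolΔ/Δ libraries and 17.2, 16.2, 17.4 and 13.03 CPM in control libraries. Its groups did not overlap (log2 fold change 0.47, SE 0.15, adjusted p = 0.0663, edgeR), and DESeq2 gave an adjusted p of 0.0230. Psmd9, a chaperone of the base ATPases, was at 40.6, 37.4, 31.7 and 36.1 CPM against 28.8, 24.6, 34.0 and 31.7 CPM, with overlap (log2 fold change 0.29, SE 0.13, adjusted p = 0.190, edgeR). The other chaperones had log2 fold changes from -0.001 for Psmd5 to 0.42 for Psmd10.

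The alternative activators and the inhibitor gave no call either. Psme2, the PA28 beta subunit of the interferon-inducible activator, was at 56.2, 62.8, 57.6 and 35.0 CPM in MitolΔ/Δ libraries and 42.3, 34.9, 37.8 and 38.9 CPM in control libraries. MitolΔ/Δ replicate 4 fell among the control libraries, while replicates 1 to 3 lay above them (log2 fold change 0.46, SE 0.16, adjusted p = 0.0980, edgeR). Psme2b, a near-identical copy of Psme2, was at 1.31 to 2.71 CPM, and reads of the pair may be split between them. Psme1, which forms the PA28 ring with Psme2, had a log2 fold change of 0.22 (edgeR's adjusted p was 0.211), the nuclear activator Psme3 0.41 (adjusted p = 0.104, edgeR), Psme4, the PA200 activator, 0.03 (adjusted p = 0.845, edgeR), and Psmf1, the inhibitor PI31, -0.08 (adjusted p = 0.686, edgeR). Of the genes matched by name alone, Psmc3ip was at 10.3, 10.1, 12.01 and 3.69 CPM against 6.61, 5.90, 5.63 and 8.50 CPM, so that MitolΔ/Δ replicate 4 was the lowest of all libraries (log2 fold change 0.44, adjusted p = 0.407, edgeR). Psme3ip1 had a log2 fold change of 0.12 (edgeR's adjusted p was 0.541).

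The shift of the 26S subunits varied among MitolΔ/Δ libraries. Taking each gene as its log2 CPM minus the mean log2 CPM of the control libraries, the median over the 31 constitutive 26S subunits was 0.519, 0.560, 0.338 and 0.160 in MitolΔ/Δ replicates 1 to 4. It was 0.154, -0.0382, 0.0552 and -0.101 in control replicates 1 to 4. MitolΔ/Δ replicate 4 lay only just above control replicate 1, yet 28 of its 31 subunits were above the control mean, beside 25 in control replicate 1. The numbers were 31, 31 and 29 in MitolΔ/Δ replicates 1 to 3.

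**Figure D5:**
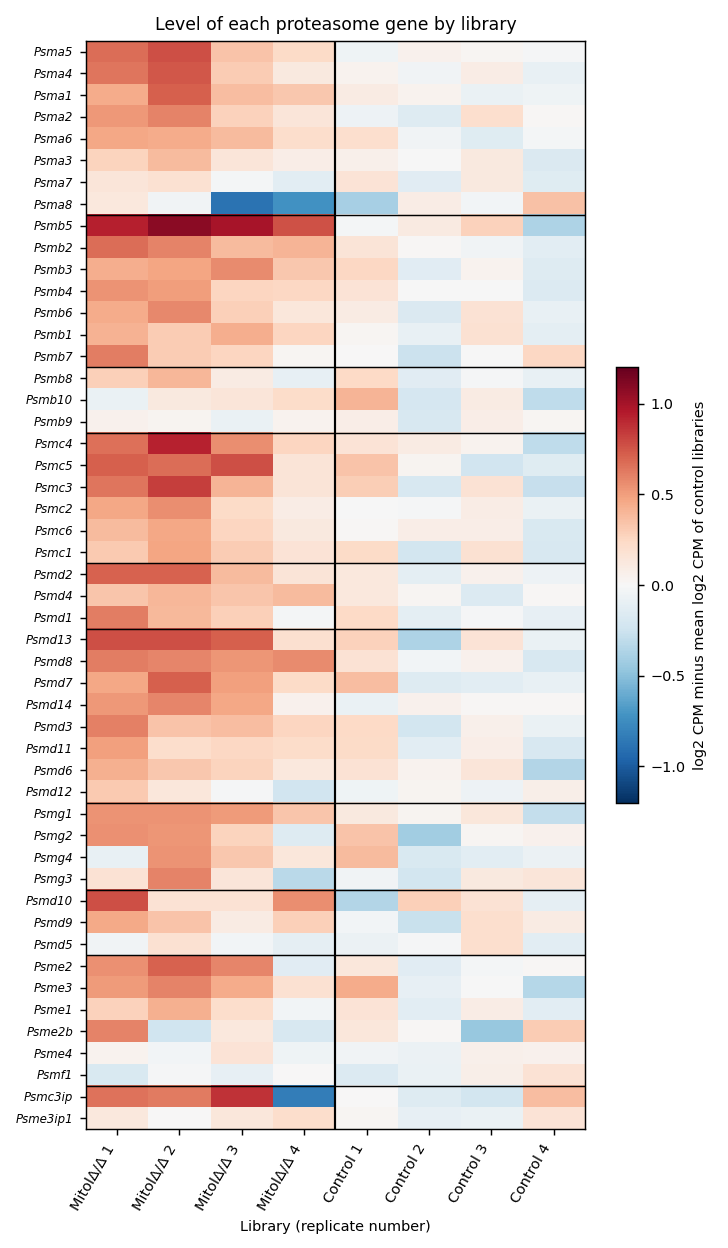
Log2 CPM minus the mean log2 CPM of the control libraries (colour) for the 50 proteasome genes (rows, by role) in each library (columns). Rows of 26S subunits are mostly red in MitolΔ/Δ replicates 1 to 3 and paler in replicate 4, and the immunoproteasome rows have no such block.

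Cell cycle genes ranked the MitolΔ/Δ libraries in the same order as the 26S subunits did, but not the control libraries. Among the latter, replicate 1 was highest by the 26S subunits and replicate 3 by the cell cycle genes. The list of 16 cell cycle genes had 13 higher and none lower in MitolΔ/Δ HSCs, with a median log2 fold change of 1.45. Among all tested genes 4.68% were called higher. Its summed level was 2806, 2854, 2036 and 1346 CPM in MitolΔ/Δ replicates 1 to 4 and 1068, 934.0, 1273 and 878.6 CPM in control replicates 1 to 4. The part of cycling in the levels of the proteasome genes was not tested. In bulk samples of sorted cells, more cells of one state and more RNA per cell cannot be told apart.

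Interferon and peptide-loading genes, the set in which immunoproteasome genes are usually induced, gave no gene that rose among 18 tested. Irf1 and Nlrc5 were among those that fell. Over all tested genes, 4.68% were called higher and 3.75% lower. Irf1, a transcription factor of the immunoproteasome genes, was at 89.6, 63.7, 77.2 and 85.2 CPM in MitolΔ/Δ libraries and 113.8, 115.3, 162.3 and 127.6 CPM in control libraries (log2 fold change -0.72, SE 0.14, adjusted p = 0.0137, edgeR). Nlrc5, the activator of MHC class I genes, had a log2 fold change of -0.33 (SE 0.08, adjusted p = 0.0367, edgeR). Tap1, the peptide transporter next to Psmb9, did not pass (log2 fold change -0.13, adjusted p = 0.341, edgeR). The summed level of the list ran from 2184 to 2455 CPM in MitolΔ/Δ and from 2464 to 2606 CPM in control libraries. Irf1 passed in all 8 fits that left out a library, and Nlrc5 in 1. The part of this list in the levels of Psmb8, Psmb9 and Psmb10 was not tested.

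Proteasome and ubiquitin genes outside the naming scheme gave 4 higher and 1 lower of 39 tested, with a median log2 fold change of 0.11. Among all tested genes, 4.68% were called higher and 3.75% lower. Sem1, the smallest lid subunit, was at 114.5, 97.4, 103.7 and 100.3 CPM in MitolΔ/Δ libraries and 79.0, 64.2, 74.1 and 61.3 CPM in control libraries (log2 fold change 0.58, SE 0.11, adjusted p = 0.0111, edgeR). Both proteasome-bound deubiquitinases also rose. Uchl5 had 25.4, 25.7, 23.2 and 19.7 CPM against 11.7, 15.99, 12.1 and 8.88 CPM (log2 fold change 0.95, SE 0.19, adjusted p = 0.0158, edgeR), and Usp14 had a log2 fold change of 0.43 (SE 0.10, adjusted p = 0.0265, edgeR). Sem1 and Uchl5 passed in all 8 fits that left out a library, and Usp14 in 3. Rps27a, which encodes a ubiquitin fused to a ribosomal protein, had a log2 fold change of 0.37 (SE 0.08, adjusted p = 0.0195, edgeR) and passed in 5 of those fits.

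Of 10 genes of the NRF1 pathway none passed as higher by edgeR, with 3 higher at an unadjusted p under 0.05, and Mafg, a small MAF partner of NRF1, was lower (log2 fold change -0.42, SE 0.10, adjusted p = 0.0238, edgeR, and 2 of 8 fits with a library left out). Nfe2l1 was at 106.2, 108.3, 102.9 and 104.7 CPM in MitolΔ/Δ libraries and 106.0, 107.4, 118.2 and 94.9 CPM in control libraries (log2 fold change -0.01, adjusted p = 0.938, edgeR). NRF1 is controlled by cleavage and stability of the protein, which mRNA counts do not measure. Pomp, the chaperone that matures the core, had a log2 fold change of -0.02 (edgeR's adjusted p was 0.954), and Adrm1, a ubiquitin receptor of the base, one of 0.21 (adjusted p = 0.332, edgeR). Psmb11, the thymus-specific subunit, was not analysed here.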

How the data were processed

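RNA-seq was analysed in 4 Mitol KO and 4 control libraries. The authors aligned single-end reads to mm39 with STAR, handled alignments with SAMtools, used Subread for counting, and deposited unnormalized counts of reads on each gene. Annotation and strand setting are not given in the sources used here. Of 23094 rows, 1029 without a symbol, 0.335% to 0.467% of a library's counts, stayed out. Symbols altered by table export were restored, and positions came from GENCODE vM39.

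Counts were tested with edgeR (version 4.0.16, R 4.3.3), using glmQLFit and glmQLFTest, TMM, filterByExpr, condition as the sole term and Benjamini-Hochberg adjustment over 16444 genes at 0.05. CPM used TMM-scaled library sizes. DESeq2 (version 1.42.0), limma-voom (version 3.58.1), other scalings and filters, a replicate block and each library left out were alternatives. Intervals are 2 standard errors. Same-numbered libraries had deviations correlated by -0.0695 to 0.0800, so the numbers were not taken as pairs.

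Members, lists and motifs were chosen with earlier results of these data known. Genes named with all values were the constitutive and immunoproteasome active-site genes, members past the threshold, and the lowest p of each role. Genes outside the rule were named if past the threshold, with Nfe2l1, Pomp, Adrm1 and Sem1. Psmd4, Psmb1, Psmd3 and others given by a log2 fold change alone were chosen after their values were seen. Opposite-strand genes overlap several members, such as Psmb9 and Tap1. A few results of the marker and interferon lists are not reported here. Depth was 7214935 to 12398138 counts, and duplicates could not be told from separate molecules for lack of molecular identifiers.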

Additional observations from a re-analysis of the deposited data

Results flagged for a closer look

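In 50 groups of 4 libraries tested for a library far from the others, 4 were flagged, and chance flags about 1 in 20 groups. Psmd13 in MitolΔ/Δ replicate 4 was at 47.9 CPM, where the other 3 lay between 68.8 and 71.8 CPM. Psmg1 in the same library was at 20.03 CPM, with the others between 22.6 and 23.0 CPM. Psmb9 in MitolΔ/Δ replicate 3 was at 89.6 CPM, with the others between 96.5 and 97.6 CPM. The summed level of interferon and peptide-loading genes in control replicate 3 was 2606 CPM, with the others between 2464 and 2484 CPM. The cause was not tested.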

How the results depend on the processing

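The number of proteasome genes called higher was 10, where 4.68% of all tested genes were called higher. It was 6 with library totals alone (3.66%), 16 with at least 10 counts in all libraries (6.20%) and 22 with DESeq2 (8.19%), which called 2315 genes in all. It was 13 with median-of-ratios scaling (5.0%), 9 without a filter (3.47%) and 12 with limma-voom (4.47%). With the replicate number as a block it was 14 (5.82%), 9 of them shared, and 1652 genes in all. The sources used here do not say whether the numbers pair the libraries. No proteasome gene was called lower in any fit. With one library left out, the number ran from 2 to 28, all genes called from 359 to 2501, and genes outside the naming scheme called from 2 to 8. The lowest total was without control replicate 2, and the highest of each without MitolΔ/Δ replicate 4. The median log2 fold change stayed between 0.30 and 0.44. Library totals alone also turned the split of all calls from 770 higher and 616 lower to 602 higher and 829 lower. Psmb9 changed sign under library totals (log2 fold change -0.0454) and without control replicate 2 (-0.0480), and Psmb10 without control replicate 4 (-0.0163), with none past the threshold. With one library left out, Psmb9 reached at most 0.0578 and Psmb10 at most 0.244. Calls were lost under library totals for Psma1, Psma5, Psmb3 and Psmb4, without a filter for Psmb4, and under limma-voom and the block for Psma5. Each of 19 named genes was paired with each alternative fit. Direction and side of the threshold stayed the same in 123 of 133 pairs with all libraries, and in 101 of 152 with one left out. Genes not called in the main fit count as the same while they stay uncalled. With one library left out, 46 of the 152 pairs were a lost call. The cause was not tested. The 8 libraries of 100 cells limit precision.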
